A study of Mus musculus with 12 samples.

Results

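The genes described here are 8 immune checkpoint ligands that tumour cells can carry: Cd274 (PD-L1), Lgals9 (galectin 9), Cd47, Pvr (CD155), Nectin2 (CD112), Tnfrsf14 (HVEM), H2-T23 (the mouse Qa-1b heavy chain) and Cd80. They form a list of gene names among the 40406 gene entries of the count table, set with earlier results of these data known, and 7 of the 8 passed the filter on low counts that left 15538 genes for testing. Cd80 did not pass and is given by its counts alone. The RNA came from bulk cultures of 4T1, a transplantable BALB/c mammary carcinoma line labelled triple-negative. Every culture was grown on poly-L-lysine, and the labels call the 3 cultures of each group biological replicates.

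The 4 groups were knockout-labelled cells given docetaxel (KO-DTX), knockout-labelled cells given the solvent DMSO (KO-DMSO), cells labelled wild type for integrin β3 and given docetaxel (WT-DTX), and the same wild-type cells given DMSO (WT-DMSO), with 3 libraries each. Docetaxel, a taxane that stabilises microtubules, was used at 10 nM for 24 h, and all 4 groups then spent 48 h in fresh medium without drug. The knockout carries the label integrin β3, encoded by Itgb3. The sources used here do not say how it was made or whether either line is 1 clone, so a difference between the lines cannot be told apart from a difference between clones.

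Checkpoint ligands dampen the immune attack on a cell by engaging inhibitory receptors on lymphocytes and myeloid cells. PD-L1 engages PD-1 on T cells, galectin 9 is a secreted and surface lectin that binds TIM-3 among other partners, and HVEM engages BTLA. CD155 and CD112 bind TIGIT, Qa-1b presents a leader peptide to the NKG2A receptor of NK and CD8 T cells, and CD47 signals through SIRPα to restrain phagocytosis. Interferons are the best known inducers of PD-L1, Qa-1b and galectin 9, acting in part through the IRF proteins. The files hold RNA counts only, so surface protein was not measured.

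The stretches upstream of 4 of these genes are shown because these genes held the largest fitted changes and the interferon-stimulated response element (ISRE) can be looked for in them. The windows of 250 bases upstream of the gene start are from RefSeq on GRCm38.p6 and run 5′ to 3′ on the gene's strand. They are in lower case, with each match to GAAA, any 2 bases and a second GAAA, on either strand, in capitals. RefSeq starts differ from the gene bounds given below, which are from GENCODE. The Tnfrsf14 window lies wholly inside those bounds, and the H2-T23 and Lgals9 windows lie partly inside. Lgals9 (chr11:78984925-78985174, minus strand), H2-T23 (chr17:36032702-36032951, minus strand) and Tnfrsf14 (chr4:154928078-154928327, minus strand) each held 1 match, and Cd274 (chr19:29367188-29367437, plus strand) held none.
Lgals9: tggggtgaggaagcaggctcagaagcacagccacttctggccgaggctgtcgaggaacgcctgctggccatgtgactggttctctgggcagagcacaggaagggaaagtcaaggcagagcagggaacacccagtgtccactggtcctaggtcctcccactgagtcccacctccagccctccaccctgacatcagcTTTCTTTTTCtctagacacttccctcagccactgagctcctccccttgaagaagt
H2-T23: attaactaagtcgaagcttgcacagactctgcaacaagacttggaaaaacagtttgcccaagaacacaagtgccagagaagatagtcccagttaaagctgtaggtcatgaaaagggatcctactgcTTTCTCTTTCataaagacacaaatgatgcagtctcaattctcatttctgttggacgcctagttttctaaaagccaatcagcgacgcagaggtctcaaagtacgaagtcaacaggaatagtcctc
Tnfrsf14: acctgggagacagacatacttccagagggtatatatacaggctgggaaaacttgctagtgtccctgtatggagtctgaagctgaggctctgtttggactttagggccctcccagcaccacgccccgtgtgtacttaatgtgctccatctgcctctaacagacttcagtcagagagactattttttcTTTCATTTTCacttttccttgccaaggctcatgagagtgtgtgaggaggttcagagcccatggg
Cd274: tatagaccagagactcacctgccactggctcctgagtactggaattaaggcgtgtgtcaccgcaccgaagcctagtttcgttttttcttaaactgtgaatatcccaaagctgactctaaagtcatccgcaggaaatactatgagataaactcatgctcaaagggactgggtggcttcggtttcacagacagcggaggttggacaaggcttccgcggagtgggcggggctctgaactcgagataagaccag

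The match lay 55 to 46 bases upstream of the RefSeq start in Lgals9, 124 to 115 bases upstream in H2-T23 and 64 to 55 bases upstream in Tnfrsf14. The matches of H2-T23 and Tnfrsf14 lie inside the GENCODE bounds of these genes, and that of Lgals9 lies outside. Among the 32851 windows of that length in the table, 978 (2.98%) held the letters. RefSeq windows were found for 7 of the 8 genes. Those of Cd47, Cd80 and Nectin2 held no match and lay inside the GENCODE bounds of these genes. The palindrome TTCNNNGAA, which STAT dimers can bind, was in none of the 7 genes' windows and in 7.02% of all windows. An NF-kB site, searched as GGGA, any 2 bases and TTCC or as GGGAA, any 3 bases and CC on either strand, was in the windows of Lgals9, Cd80 and Nectin2 and in 5.64% of all windows. A match is a description of letters and not of a bound site.

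Libraries held 28.7 to 40.8 mega-counts each. Itgb3 averaged 64.7 CPM (counts per mega-count, scaled by TMM) in KO-DMSO libraries and 65.9 CPM in WT-DMSO libraries, with a log2 difference of -0.03 ± 0.08 (SE, adjusted p = 0.874), so its RNA level does not separate the lines under DMSO and the cells are called knockout-labelled throughout. With docetaxel it stood at 62.4 CPM in KO-DTX libraries and 83.1 CPM in WT-DTX libraries, a log2 difference of knockout-labelled from wild-type cells of -0.41 ± 0.08 (adjusted p = 0.00765). Docetaxel raised it in wild-type cells (0.34 ± 0.08, adjusted p = 0.00856), and its change in knockout-labelled cells was -0.05 ± 0.08 (adjusted p = 0.725). The description of WT-DMSO library 1 names a knockout, while its title and genotype label say wild type. It was kept as wild type, and values without it follow where they matter. The 9 mammary epithelial markers summed to 3139 to 4178 CPM in KO-DTX, 4073 to 4293 CPM in KO-DMSO, 3233 to 3982 CPM in WT-DTX and 3300 to 4408 CPM in WT-DMSO libraries. Of the 8 tested, 1 was higher and 1 lower in knockout-labelled cells under DMSO, and likewise after docetaxel. The lower one was Cldn7, a tight junction gene, which averaged 0.0741 CPM in KO-DMSO and 8.95 CPM in WT-DMSO libraries, and 0.139 CPM in KO-DTX and 7.81 CPM in WT-DTX libraries. The higher one was Epcam, at a log2 of 0.46 ± 0.10 under DMSO and 0.47 ± 0.10 after docetaxel. The pan-leukocyte gene Ptprc averaged at most 0.135 CPM in any group. The 16 leukocyte markers summed to 24.1 to 33.5 CPM in KO-DTX, 17.0 to 27.1 CPM in KO-DMSO, 24.5 to 31.9 CPM in WT-DTX and 19.8 to 37.6 CPM in WT-DMSO libraries, so these ranges overlap. The 10 fibroblast markers, mostly Pdgfra and with Lum at 0, summed to 12.9 to 16.1 CPM in KO-DTX, 15.3 to 19.0 CPM in KO-DMSO, 20.8 to 22.4 CPM in WT-DTX and 29.0 to 31.1 CPM in WT-DMSO libraries. This sum follows Pdgfra, while Fap, at no more than 1.02 CPM by group mean, rose with docetaxel in knockout-labelled (log2 2.08, adjusted p = 0.00299) and wild-type cells (1.93, adjusted p = 0.00240). The part of either in the results was not tested. In bulk RNA, fewer cells expressing a gene and less RNA per cell cannot be told apart.

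Per base of exon, the ligands spanned a wide range of RNA levels. In RPKM, which scales counts by library size and summed exon length, WT-DMSO means were 72.0 for Lgals9, 66.1 for Cd47, 45.5 for H2-T23, 25.3 for Nectin2, 9.39 for Pvr, 1.38 for Cd274 and 1.29 for Tnfrsf14. In that order the library ranges of Lgals9 and Cd47, of Cd47 and H2-T23, and of Cd274 and Tnfrsf14 overlapped, and the other neighbours were apart. In KO-DMSO libraries the order was Cd47 at 54.8, Nectin2 at 27.9, H2-T23 at 25.9, Lgals9 at 16.2, Pvr at 7.08, Cd274 at 0.638 and Tnfrsf14 at 0.299 RPKM, with Nectin2 and H2-T23 overlapping. Lgals9 thus led the list by mean in WT-DMSO libraries and stood below Cd47, Nectin2 and H2-T23 in KO-DMSO libraries. After docetaxel it again had the highest mean in both lines, at 77.4 RPKM in KO-DTX and 114 RPKM in WT-DTX libraries, although in KO-DTX its range overlapped that of Cd47 (61.8 RPKM).

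**Figure D1:**
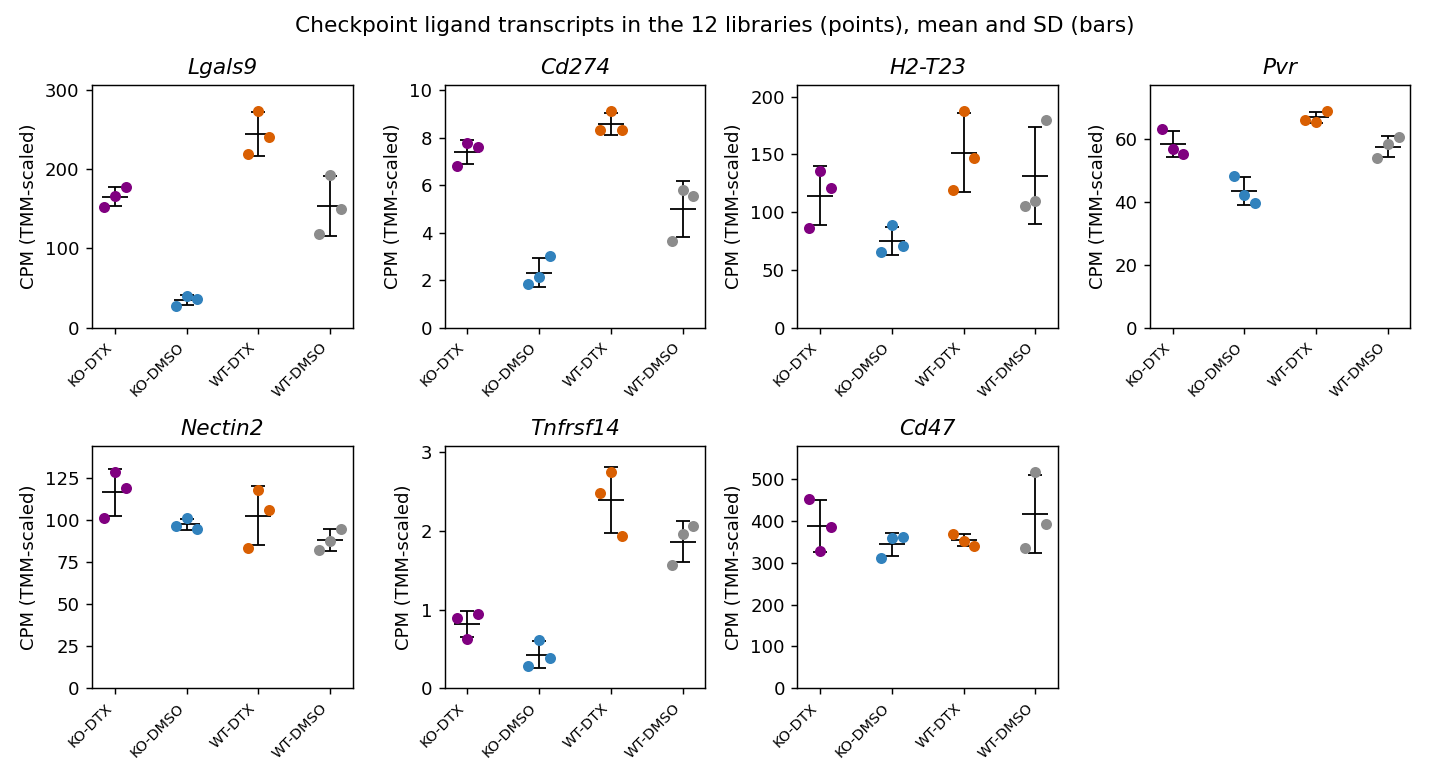
RNA level of 7 checkpoint ligands in each library, in TMM-scaled CPM (y axis, from 0), for KO-DTX, KO-DMSO, WT-DTX and WT-DMSO (x axis); points are libraries, and bars give the mean and SD of 3. Lgals9 lies at 27.8 to 39.7 CPM in the KO-DMSO libraries and at 119 CPM or above in all the others, while Cd47 overlaps across the groups.

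Lgals9 encodes galectin 9 and lies on chromosome 11 (78962974 to 78984946, minus strand, GRCm38). Its level was 153, 166 and 177 CPM in KO-DTX libraries, against 27.8, 39.7 and 36.2 CPM in KO-DMSO libraries. In the wild-type line it was 219, 274 and 241 CPM in WT-DTX libraries, against 119, 193 and 149 CPM in WT-DMSO libraries. The 3 KO-DMSO libraries were far below the other 9, and within each line every docetaxel library was above every DMSO library. Docetaxel raised it 4.78-fold in knockout-labelled cells (log2 2.26 ± 0.17, SE, adjusted p = 1.22e-06) and 1.59-fold in wild-type cells (log2 0.67 ± 0.16, adjusted p = 0.00710), by edgeR's quasi-likelihood test with Benjamini-Hochberg adjustment over all 15538 genes, as for every adjusted p given here. Of all tested genes, 1.39% had a larger absolute log2 change with docetaxel in the knockout-labelled line. Under DMSO it was lower in knockout-labelled than in wild-type cells by a log2 of -2.15 ± 0.17 (adjusted p = 1.69e-06). After docetaxel the 3 KO-DTX libraries still lay below the 3 WT-DTX libraries, but the difference of -0.56 ± 0.16 did not pass (adjusted p = 0.0531). It passed on leaving out WT-DMSO library 1, WT-DMSO library 2 or KO-DMSO library 1 (adjusted p = 0.0240, 0.0162 and 0.0407). These libraries are not in the groups compared, and the log2 difference stayed at -0.56 to -0.57. It did not pass with any other single library left out. Over all libraries left out singly, the difference ran from -0.64 to -0.48 and the adjusted p from 0.0162 to 0.203.

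The docetaxel change in Lgals9 was itself larger in knockout-labelled than in wild-type cells, by 1.59 ± 0.23 on the log2 scale (adjusted p = 0.0165, 95% interval 1.10 to 2.08). It was the 1 ligand of the 7 to pass this test of the difference, which 17 genes or 0.109% of all tested genes passed, 0.0901% with the larger change in knockout-labelled cells. The KO-DMSO libraries enter both this test and the docetaxel contrast in that line. The call was lost on leaving out WT-DTX library 1 or 3, KO-DMSO library 1 or 3, or KO-DTX library 3, with log2 differences of 1.45 to 1.62 and adjusted p of 0.0540 to 0.0846. It was also lost without WT-DMSO library 2 and KO-DTX library 3 together, the libraries richest in the Gm23935 transcript (1.34, adjusted p = 0.0562). Without WT-DMSO library 1 the difference was 1.74 (adjusted p = 0.00256). Its receptor gene Havcr2 (TIM-3) averaged 2.77 CPM in KO-DTX, 1.43 CPM in KO-DMSO, 2.60 CPM in WT-DTX and 1.09 CPM in WT-DMSO libraries, and rose with docetaxel in knockout-labelled (log2 0.96 ± 0.28, adjusted p = 0.0336) and wild-type cells (1.25 ± 0.30, adjusted p = 0.00660).

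Cd274 encodes PD-L1 and lies on chromosome 19 (29367455 to 29388095, plus strand). It was measured at 6.81, 7.77 and 7.61 CPM in KO-DTX libraries, against 1.82, 2.12 and 3.00 CPM in KO-DMSO libraries. In wild-type cells it was 8.33, 9.13 and 8.33 CPM in WT-DTX libraries, against 3.65, 5.81 and 5.54 CPM in WT-DMSO libraries. The groups did not overlap within either line, and after docetaxel all 3 KO-DTX libraries lay just below all 3 WT-DTX libraries. Docetaxel raised Cd274 by a log2 of 1.67 ± 0.20 in knockout-labelled cells (adjusted p = 7.88e-05) and 0.78 ± 0.19 in wild-type cells (adjusted p = 0.00785). The difference between those changes, 0.89 ± 0.28, did not pass (adjusted p = 0.303), although it did without WT-DMSO library 1 (1.07, adjusted p = 0.0363).

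Under DMSO, Cd274 was lower in knockout-labelled than in wild-type cells, by a log2 of -1.11 ± 0.21 (adjusted p = 0.00248). After docetaxel the difference was -0.22 ± 0.18 (adjusted p = 0.608) with a 95% interval of -0.61 to 0.18. The level rests on few reads, with summed counts of 810 in KO-DTX, 224 in KO-DMSO, 913 in WT-DTX and 438 in WT-DMSO libraries. The summed-count ratio after scaling for library size was 3.15 for KO-DTX over KO-DMSO (exact 95% counting interval 2.71 to 3.67) and 1.72 for WT-DTX over WT-DMSO (1.53 to 1.93). These intervals cover counting error only.

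Cd80 encodes a ligand that both co-stimulates through CD28 and inhibits through CTLA-4, and it also binds PD-L1 on the same cell. It had 1 count in WT-DMSO library 1 and 0 in the other 11 libraries. The group totals of 0 allow at most 0.0272 CPM in KO-DTX, 0.0312 CPM in KO-DMSO and 0.0283 CPM in WT-DTX libraries, taking 3 counts over a group as the limit. No difference was detectable at this depth.

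H2-T23 encodes the Qa-1b heavy chain, the mouse counterpart of human HLA-E, on chromosome 17 (36029773 to 36032855, minus strand). Its level was 86.2, 136 and 121 CPM in KO-DTX libraries, against 65.1, 88.7 and 70.6 CPM in KO-DMSO libraries. In wild-type cells it was 119.5, 188 and 147 CPM in WT-DTX libraries, against 105, 109.7 and 180.1 CPM in WT-DMSO libraries. The KO-DMSO libraries were all below the WT-DMSO libraries, while the docetaxel and DMSO libraries overlapped in both lines. H2-T23 was lower in knockout-labelled cells under DMSO by a log2 of -0.82 ± 0.22 (adjusted p = 0.0230), and the change with docetaxel did not pass in knockout-labelled cells (0.61 ± 0.22, adjusted p = 0.0752) or in wild-type cells (0.20 ± 0.22, adjusted p = 0.526). In knockout-labelled cells it passed without WT-DMSO library 3 (0.61, adjusted p = 0.0283), which is not in the groups compared, or KO-DTX library 1 (0.78, adjusted p = 0.0385). Over all libraries left out singly, this change ran from 0.47 to 0.78 and the adjusted p from 0.0283 to 0.212.

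The H2-T23 difference under DMSO rests on single libraries: it did not pass without WT-DMSO library 3 (-0.53, adjusted p = 0.0974), KO-DMSO library 1 (-0.72, adjusted p = 0.105) or KO-DMSO library 3 (-0.78, adjusted p = 0.0804). Within each of the 4 groups H2-T23 was highest in the library with the largest share of the abundant non-coding transcript Gm26917, which took 7.07% to 11.9% of a library's counts. Nectin2 was likewise highest in that library in 4 of 4 groups, Tnfrsf14 in 3, Lgals9 and Cd274 in 2 each, Pvr in 1 and Cd47 in none. Tnfrsf14 was lowest in that library in the KO-DTX group. Class I genes share near-identical stretches, so reads of H2-T23 could have been divided among them in the counting.

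**Figure D2:**
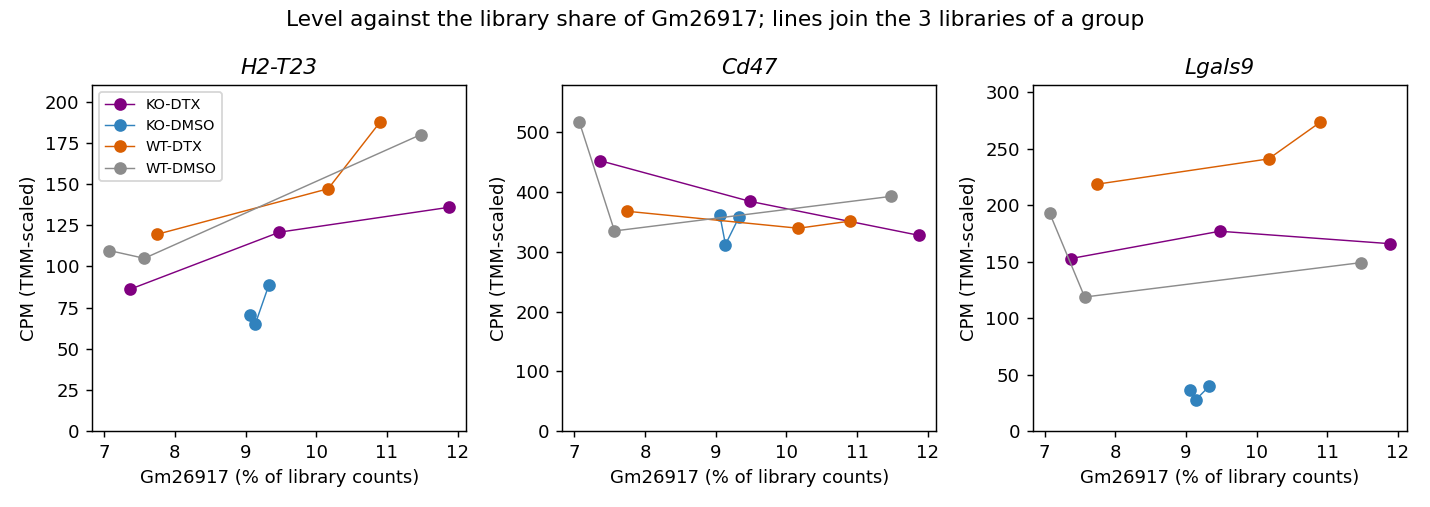
RNA level in TMM-scaled CPM (y axis, from 0) against the share of library counts in Gm26917 (x axis, percent) for H2-T23, Cd47 and Lgals9; points are libraries and lines join the 3 libraries of KO-DTX, KO-DMSO, WT-DTX and WT-DMSO. In WT-DMSO, H2-T23 is at 180.1 CPM in the library with 11.5% Gm26917 and at 105 and 109.7 CPM in the others. The KO-DMSO libraries lie at 9.06% to 9.33% Gm26917, with Lgals9 at 27.8 to 39.7 CPM. That span is too narrow to show a trend, and a link of Lgals9 to this share was not tested.

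Qa-1b is assembled with B2m and loaded through TAP, and most tested genes of that pathway rose with docetaxel. Of 19 tested genes of the class I heavy chains, B2m and the loading machinery, 15 rose and 0 fell with docetaxel in knockout-labelled cells (median log2 0.76, against 0.00 for all genes, of which 9.09% rose). In wild-type cells 11 rose and 0 fell (0.61, against 0.02, with 14.5% of all genes rising). Between lines under DMSO 0 were higher and 12 lower in knockout-labelled cells (-0.77, against 0.01, with 9.2% of all genes lower), and after docetaxel 0 were higher and 6 lower (-0.48, against 0.01, with 3.39% lower). B2m averaged 744.6 CPM in KO-DTX and 357 CPM in KO-DMSO libraries (log2 1.06 ± 0.14, adjusted p = 0.000227), and 1207 CPM in WT-DTX and 752 CPM in WT-DMSO libraries (0.68 ± 0.14, adjusted p = 0.00339).

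Tnfrsf14 encodes HVEM and lies on chromosome 4 (154921933 to 154928563, minus strand). It was measured at 0.891, 0.633 and 0.944 CPM in KO-DTX libraries and 0.288, 0.619 and 0.382 CPM in KO-DMSO libraries. In wild-type cells it was 2.48, 2.75 and 1.93 CPM in WT-DTX libraries and 1.56, 1.96 and 2.06 CPM in WT-DMSO libraries. Every knockout-labelled library was below every wild-type library of either treatment. It was lower in knockout-labelled cells by a log2 of -2.11 ± 0.31 under DMSO (adjusted p = 0.000459) and -1.53 ± 0.28 after docetaxel (adjusted p = 0.00426), the 1 ligand of the 7 to pass between the lines after docetaxel.

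The docetaxel changes in Tnfrsf14 did not pass, at a log2 of 0.94 ± 0.32 in knockout-labelled cells (adjusted p = 0.0643) and 0.36 ± 0.26 in wild-type cells (adjusted p = 0.335). The change in knockout-labelled cells passed without KO-DMSO library 2 (1.29, adjusted p = 0.0399) or KO-DTX library 2 (1.10, adjusted p = 0.0446). Summed counts were 91 in KO-DTX, 41 in KO-DMSO, 254 in WT-DTX and 163 in WT-DMSO libraries. The scaled count ratio of knockout-labelled over wild-type cells was 0.229 under DMSO (exact 95% counting interval 0.159 to 0.324) and 0.345 after docetaxel (0.268 to 0.440). HVEM has a co-stimulatory partner in LIGHT as well as an inhibitory one in BTLA.

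Pvr and Nectin2 encode nectin-family adhesion proteins that share the receptors TIGIT and CD226, and both genes lie on chromosome 7, minus strand (19903578 to 19921160 and 19716644 to 19750483). Pvr was at 63.0, 56.8 and 55.1 CPM in KO-DTX libraries, against 48.2, 42.2 and 39.6 CPM in KO-DMSO libraries. It was at 66.0, 65.4 and 68.8 CPM in WT-DTX libraries, against 53.7, 58.1 and 60.5 CPM in WT-DMSO libraries. The docetaxel libraries lay above the DMSO libraries in both lines, and the KO-DMSO libraries lay below all others. Pvr rose with docetaxel in knockout-labelled cells (log2 0.43 ± 0.09, adjusted p = 0.00570) and not past the threshold in wild-type cells (0.22 ± 0.09, adjusted p = 0.0896), and the difference of 0.21 between those changes did not pass (adjusted p = 0.544). Under DMSO it was lower in knockout-labelled cells by a log2 of -0.41 ± 0.09 (adjusted p = 0.00777), and after docetaxel the difference was -0.19 ± 0.09 (adjusted p = 0.272).

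Nectin2 was at 101.5, 129 and 119 CPM in KO-DTX libraries, against 96.6, 101.2 and 94.6 CPM in KO-DMSO libraries. It was at 83.6, 118 and 106 CPM in WT-DTX libraries, against 82.3, 87.6 and 94.8 CPM in WT-DMSO libraries. The docetaxel and DMSO libraries overlapped in wild-type cells, and in knockout-labelled cells the lowest docetaxel library lay barely above the highest DMSO library. None of its 5 contrasts passed, with log2 changes with docetaxel of 0.26 ± 0.12 in knockout-labelled cells (adjusted p = 0.159) and 0.22 ± 0.12 in wild-type cells (adjusted p = 0.189). With each library's trend of counts on GC content removed, both docetaxel changes passed, at 0.37 (adjusted p = 0.00621) and 0.24 (adjusted p = 0.0393), and the change in wild-type cells also passed without WT-DTX library 1 (0.35, adjusted p = 0.0395). Under DMSO the difference between knockout-labelled and wild-type cells was 0.14 ± 0.12, with a 95% interval of -0.11 to 0.40.

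Cd47 encodes the SIRPα ligand that marks cells against phagocytosis, and lies on chromosome 16 (49800533 to 49915010, plus strand). It was at 452, 327 and 384.5 CPM in KO-DTX libraries, against 312, 358 and 362 CPM in KO-DMSO libraries. It was at 368, 351 and 339 CPM in WT-DTX libraries, against 335, 517 and 393 CPM in WT-DMSO libraries. The groups overlapped in both lines, and the highest value was that of WT-DMSO library 2. No contrast passed, and the 95% intervals of the docetaxel changes were -0.13 to 0.48 in knockout-labelled and -0.54 to 0.07 in wild-type cells on the log2 scale.

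Genes of phagocytosis were looked at beside Cd47. Calr, an eat-me signal at the surface of dying cells, averaged 435 CPM in KO-DTX and 267 CPM in KO-DMSO libraries (log2 0.71 ± 0.08, adjusted p = 7.41e-05), and 594 CPM in WT-DTX and 264 CPM in WT-DMSO libraries (1.17 ± 0.09, adjusted p = 1.62e-06). Thbs1, a secreted CD47 ligand, fell with docetaxel in knockout-labelled (-0.45 ± 0.10, adjusted p = 0.00793) and wild-type cells (-0.42 ± 0.10, adjusted p = 0.00750). Of 11 tested genes of this axis, 2 rose and 2 fell with docetaxel in knockout-labelled cells (median log2 -0.06, against 0.00 for all genes, of which 16.1% passed), and 3 rose and 4 fell in wild-type cells (-0.21, against 0.02, with 28.4% passing).

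Counted together, 3 of the 7 tested ligands (Lgals9, Cd274, Pvr) rose and 0 fell with docetaxel in knockout-labelled cells, where 16.1% of tested genes passed in either direction and 9.09% rose. The docetaxel and DMSO libraries of that line did not overlap for 5 ligands, as for 37.7% of all tested genes. In wild-type cells 2 (Lgals9, Cd274) rose and 0 fell, where 28.4% passed in either direction and 14.5% rose. Counted in either direction, 2 of 7 tested is near the 28.4% for all genes, while the share that rose over all genes was lower. There 3 ligands had no overlap between treatments, against 40.5% of all genes. Under DMSO 5 (Lgals9, Tnfrsf14, Cd274, H2-T23, Pvr) were lower and 0 higher in knockout-labelled cells, where 15.8% passed and 9.2% were lower, and 5 had no overlap between lines, against 32.6% of all genes. After docetaxel 1 (Tnfrsf14) was lower, where 5.89% passed and 3.39% were lower, and 4 had no overlap, against 25.1% of all genes. The KO-DMSO and WT-DMSO libraries serve as controls for the docetaxel contrasts and also as the groups compared under DMSO, so these counts share libraries. The median log2 change of the 7 tested ligands was 0.61, 0.22, -0.82 and -0.22 in those 4 contrasts, against medians over all genes within 0.02 of 0.

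**Figure D3:**
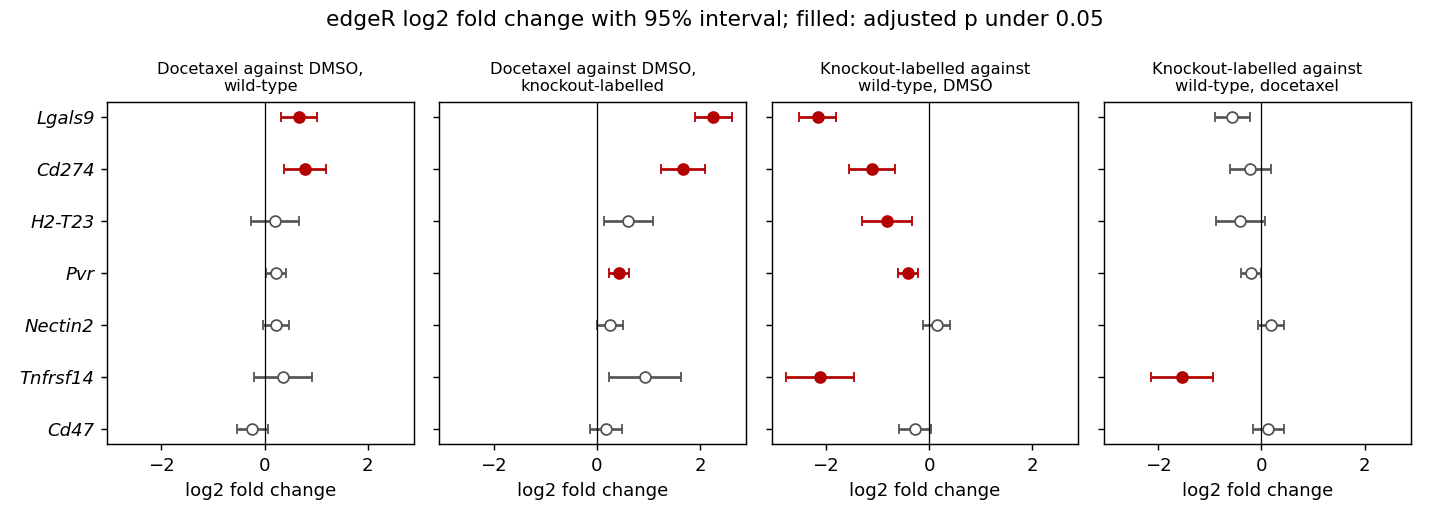
Log2 fold change of 7 checkpoint ligands (x axis) with its 95% interval in 4 contrasts, from edgeR; filled points have an adjusted p under 0.05. Lgals9 and Cd274 are filled in the first 3 panels, and in the panel after docetaxel only Tnfrsf14 is filled, at -1.53.

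Regulators that carry interferon signals to these genes, a list of 19 tested, were described next. With docetaxel 7 rose and 1 fell in knockout-labelled cells (median log2 0.16, against 0.00 for all genes, of which 16.1% passed), and 6 rose and 3 fell in wild-type cells (-0.03, against 0.02, with 28.4% passing). Under DMSO 1 was higher and 7 were lower in knockout-labelled cells (-0.22, against 0.01, with 15.8% of all genes passing), and after docetaxel 1 was higher and 1 lower (0.02, against 0.01, with 5.89% passing). Most of the list did not pass in any 1 contrast.

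Nlrc5, the transactivator of class I genes, averaged 10.2 CPM in KO-DTX and 2.24 CPM in KO-DMSO libraries (log2 2.18 ± 0.14, adjusted p = 2.78e-07), and 33.3 CPM in WT-DTX and 15.6 CPM in WT-DMSO libraries (1.10 ± 0.12, adjusted p = 3.06e-05). It was the 1 gene of the list whose docetaxel changes differed between lines (1.09 ± 0.18, adjusted p = 0.0346). Irf1, the factor best known at the Cd274 promoter, passed in none of the contrasts, at 153 CPM in KO-DTX, 123 CPM in KO-DMSO, 145 CPM in WT-DTX and 127 CPM in WT-DMSO libraries.

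**Figure D4:**
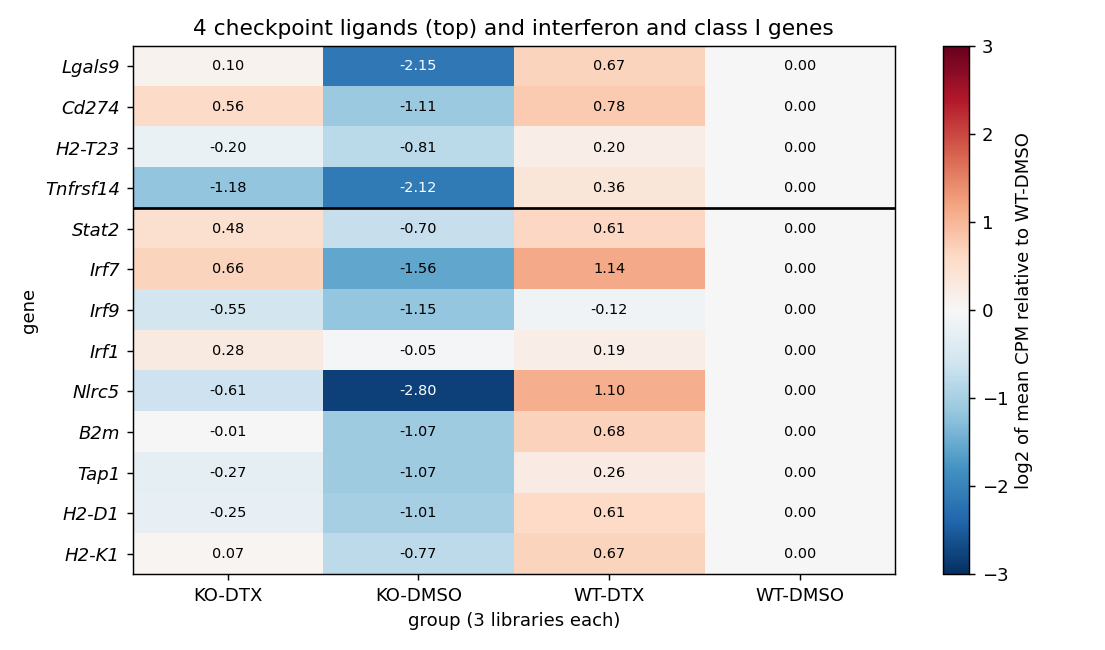
Log2 of the mean CPM of each group relative to WT-DMSO (colour), for 4 checkpoint ligands above the line and 9 interferon and class I genes below it, in the columns KO-DTX, KO-DMSO, WT-DTX and WT-DMSO. The 9 were picked from the lists of interferon regulators and class I genes, each with 19 tested. Of the 19 regulators, 7 were lower and 1 higher in knockout-labelled cells under DMSO. The higher one, Jak2 (0.69 ± 0.11, adjusted p = 0.000692), is not shown. In KO-DMSO, Nlrc5 is at -2.80, Lgals9 at -2.15 and Tnfrsf14 at -2.12, while Irf1 lies between -0.05 and 0.28 in every column.

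The genes most like each ligand across the 12 libraries were found by the root mean square difference of centred log2 CPM, among 9960 candidate genes (9961 for Tnfrsf14) above a mean log2 CPM of 2. For Cd274 they were Irgm2 (0.147), Igtp (0.150) and Usp18 (0.159), set against a Cd274 standard deviation of 0.766. For Lgals9 they were Sp100 (0.218), Ifi47 (0.220) and Dhx58 (0.223), against 1.09. For H2-T23 they were Tap2 (0.0788), Psmb10 (0.138) and Trafd1 (0.157), against 0.465. For Tnfrsf14 they were Vcam1 (0.263), Lix1l (0.331) and Slfn8 (0.345), against 0.974, and for Pvr they were Ccnd2 (0.0896), Pip5k1a (0.0903) and Atp6ap1 (0.0924), against 0.242. These libraries share groups and depth, so likeness is a description.

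Among other co-inhibitory genes, a list of ligands with some receptors and enzymes, 11 of 20 could be tested. With docetaxel 2 rose and 1 fell in each line (median log2 0.07 in knockout-labelled and 0.25 in wild-type cells, against 0.00 and 0.02 for all genes). The enzyme gene Nt5e was 1 of the 2 that rose in knockout-labelled cells (0.41 ± 0.10, adjusted p = 0.00974). Ceacam1, at no more than 0.461 CPM by group mean, was 1 of the 2 in wild-type cells. Over all genes 16.1% and 28.4% passed in those lines, so 3 of 11 in wild-type cells is near the share for all genes. Between lines 2 were higher and 2 lower in knockout-labelled cells under DMSO (0.32, with 15.8% of all genes passing), and 2 higher and 1 lower after docetaxel (-0.17, with 5.89% passing). Nt5e was among the lower genes in both. Vsir, which encodes VISTA, was higher in knockout-labelled cells: it averaged 10.1 CPM in KO-DMSO and 2.23 CPM in WT-DMSO libraries (log2 2.18 ± 0.34, adjusted p = 0.000696), and 6.72 CPM in KO-DTX and 1.20 CPM in WT-DTX libraries (2.49 ± 0.36, adjusted p = 0.000688). Cd276 (B7-H3) rose with docetaxel in both lines, by a log2 of 0.27 ± 0.07 in knockout-labelled (adjusted p = 0.0164) and 0.35 ± 0.07 in wild-type cells (adjusted p = 0.00233). Lgals3, the galectin that binds LAG-3, was lower in knockout-labelled cells under DMSO (-0.85 ± 0.12, adjusted p = 0.000274).

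Of 7 tested co-stimulatory ligands, 4 rose and 0 fell with docetaxel in each line. Of all genes, 9.09% rose in knockout-labelled and 14.5% in wild-type cells. The median log2 was 0.93 in knockout-labelled and 0.44 in wild-type cells, against 0.00 and 0.02 for all genes. The 4 in knockout-labelled cells were Icosl, Cd40, Tnfsf15 and Icam1, each at no more than 4.60 CPM by group mean. Tnfsf9 and Ulbp1, at 14.6 and 13.9 CPM in KO-DTX libraries, did not pass there (log2 -0.30 and 0.23). In wild-type cells Cd40, Tnfsf15, Icam1 and Tnfsf9 rose, the last to 20.3 CPM in WT-DTX libraries. Between lines 0 of the 7 were higher and 1 lower in knockout-labelled cells under DMSO, where 9.2% of all genes were lower. After docetaxel 0 were higher and 3 lower, where 3.39% of all genes were lower. Ulbp1, a ligand of the activating receptor NKG2D, averaged 11.9 CPM in KO-DMSO and 21.1 CPM in WT-DMSO libraries (-0.82 ± 0.12, adjusted p = 0.000313) and 13.9 CPM in KO-DTX and 22.9 CPM in WT-DTX libraries (-0.72 ± 0.11, adjusted p = 0.00161).

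Genes that control how long PD-L1 protein lasts formed a list of 13 tested. With docetaxel in knockout-labelled cells 0 rose and 0 fell by edgeR (median log2 -0.01), where 16.1% of all genes passed; 2 had an unadjusted p under 0.05, and 0 passed by DESeq2 or limma-voom. In wild-type cells 0 rose and 3 fell (-0.14), near the 28.4% of all genes that passed, namely Btrc (-0.39 ± 0.09, adjusted p = 0.00451), Usp22 (-0.33 ± 0.08, adjusted p = 0.00510) and Csnk2a1 (-0.32 ± 0.08, adjusted p = 0.00861). Cmtm6, which keeps PD-L1 at the cell surface, averaged 57.2 CPM in KO-DMSO and 46.5 CPM in WT-DMSO libraries (0.30 ± 0.08, adjusted p = 0.0191), the 1 member of that list to differ between lines.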

How the data were processed

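The authors deposited raw read counts per gene symbol, with 1 column for each of 12 libraries of ribosome-depleted RNA. The submitters' processing notes list STAR 2.5.1a, featureCounts 1.4.6-p5 of Subread, and bcl2fastq, per the labels. The sources used here do not give the build, annotation, strand setting or treatment of reads with several matches, so reads of overlapping or near-identical genes may be divided. Of 40757 entries, 351 repeated another in symbol and counts (0.907% of counts) and were removed.

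Counts were tested with edgeR 4.0.16: filterByExpr, TMM scaling and a single quasi-likelihood fit of 4 group means to the 12 libraries, 3 per group. The 5 contrasts were two-sided, adjusted by Benjamini-Hochberg over 15538 genes, with a threshold of 0.05. The common biological coefficient of variation came to 13.2%. Values in CPM use TMM-scaled library sizes, with mean ± SD over 3 libraries. RPKM and positions use GENCODE M21 exons on GRCm38. P-values measure the spread between cultures labelled as biological triplicates. Libraries of a group differed by more than counting noise (chi-square per degree of freedom 7.79 to 155), so none was counted as a repeat.

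The ligands and gene lists were chosen with earlier results of these data known. Named list genes averaged 5 CPM or more in whichever group was higher and were among the up to 4 with the largest passing change per list and contrast, plus receptors and partners of the ligands. Irf1, Ptprc, Fap, Lum, Icosl, Cd40, Tnfsf15, Icam1 and Ceacam1 were chosen after their values were seen. Alternatives used DESeq2 1.42.0, limma 3.58.1, other scalings and filters, a GC correction, a replicate block, and libraries left out. The code was tested on simulated data. One result is not reported here.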

Additional observations from a re-analysis of the deposited data

Results flagged for a closer look

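The docetaxel change differed between the lines for Lgals9 and Nlrc5, by the interaction test of edgeR. For Lgals9 the log2 change was larger by 1.59 in knockout-labelled than in wild-type cells. For Nlrc5 it was larger by 1.09. In both genes the KO-DMSO libraries had the lowest mean of the 4 groups. The Lgals9 call was lost on leaving out some libraries, as given above, and no such values are given here for Nlrc5. With 1 library left out, 2 to 431 genes passed this test, against 17 with all libraries.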

How the results depend on the processing

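Each ligand's log2 change was recomputed under 24 alternatives. Of 833 values, 795 kept direction and side of the threshold, 9 lost a call, 26 gained one and 3 changed sign. The sign changes were all Nectin2's difference of docetaxel effects, at -0.01 without WT-DMSO library 3, -0.089 without WT-DTX library 1 and -0.03 without KO-DTX library 2, in a range of -0.089 to 0.15 over libraries left out. With docetaxel in knockout-labelled cells, 5 ligands passed by DESeq2 and 6 with the GC correction, against 3. The Lgals9 difference between lines after docetaxel passed under 10 of 24 alternatives. After docetaxel, between lines, 2 ligands passed by DESeq2, limma-voom, upper-quartile scaling, 6-library fits, the replicate block and without the libraries richest in Gm23935, and 3 with no filter, against 1. Without those libraries 1267 genes passed between lines under DMSO, against 2454, and 565 after docetaxel, against 915. For the difference of docetaxel effects 0 ligands and 4 genes passed without them, against 1 and 17, and genes passing were 165 by DESeq2, 8 by limma-voom, 421 with no filter, 48 with the replicate block and 38 with the GC correction. The cause was not tested.

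Leaving out 1 library at a time, 1311 to 2881 genes passed with docetaxel in knockout-labelled cells, 1264 to 3273 between lines under DMSO, and 467 to 1083 after docetaxel, with 1 to 2 ligands. For the difference of docetaxel effects 0 to 2 ligands and 2 to 431 genes passed. Same-numbered libraries did not deviate together in most pairs of groups (r from -0.27 to 0.35 over 18 pairs, 4 above 0.1). Between WT-DTX and KO-DTX, r was 0.35, 0.22 and 0.03 for libraries 1, 2 and 3. Differently numbered libraries reached values of like size, from -0.36 (WT-DMSO library 3 with KO-DTX library 1) to 0.30 (WT-DMSO library 2 with KO-DTX library 1). Whether the replicate numbers pair the cultures is thus not settled, and the main fit used no pairing.

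Depth limits Tnfrsf14 and Cd274 most, and Cd80 could not be tested. With the longest transcript in place of all exons, the RPKM of Pvr rose to 14.9 in KO-DMSO and 19.8 in WT-DMSO libraries.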

Other observations

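Tigit, the receptor that binds CD155 and CD112 on lymphocytes, was itself read in these tumour cell cultures, at 51.2 ± 7.03 CPM in KO-DTX, 49.0 ± 3.54 CPM in KO-DMSO, 50.3 ± 2.17 CPM in WT-DTX and 56.4 ± 6.91 CPM in WT-DMSO libraries (SD, n = 3). It passed no contrast by edgeR. Sirpa, the CD47 receptor, averaged 28.9 CPM in KO-DTX, 30.6 CPM in KO-DMSO, 30.3 CPM in WT-DTX and 36.7 CPM in WT-DMSO libraries. The leukocyte gene Ptprc stayed at or below 0.135 CPM by group mean, and strand was not given for the counting.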
